A study of Arabidopsis thaliana with 16 samples.

Results

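The transcripts of leaves in which the catalytic subunit of NatA, *NAA10* (AT5G13780), was lowered by an artificial microRNA are described here against those of the watered wild type. The comparison rests on the 4 arrays labelled amiNaa10 control and the 4 arrays labelled wild type control, chosen by their labels alone, which are 8 of the 16 Affymetrix AraGene-1_0-st arrays of the series, and on all 27827 genes of the deposited table. The amiNaa10 plants are *Arabidopsis thaliana* Col-0 that express the microRNA against *NAA10* from the constitutive CaMV 35S promoter. The results of the paper name 1 amiNaa10 line for the transcriptomes, so that the lowering of *NAA10* and other properties of that line cannot be told apart. The other arrays are 4 labelled amiNaa15 control, whose plants carry a microRNA against the auxiliary subunit *NAA15* (AT1G80410) under the same promoter, and 4 of the wild type after 10 days of drought. The labels give soil culture of 6 weeks at 8 h light and 16 h dark for all plants, and every RNA was extracted from leaves. The methods give a longer time on soil. Replicates are labelled as biological, and bulk leaf tissue was used, so that fewer cells of a type and less RNA per cell cannot be told apart.

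NatA is an N-terminal acetyltransferase that works at the ribosome. It transfers an acetyl group to the first residue of nascent proteins after methionine aminopeptidase has removed the initiator methionine, mainly where that residue is small, such as alanine, serine, threonine or glycine. NAA10 carries the catalytic site, and NAA15 anchors the complex to the ribosome. The arrays measured transcripts and not the acetylation itself.

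The deposited values are log2 signals, which the authors had corrected for background with RMA and quantile normalized, so that 1 unit is a 2-fold difference. All 16 arrays held the same sorted values, with a median of 5.28 and a range of 0.658 to 14, and therefore only changes relative to the rest of the transcriptome can be read. Arrays of 1 group correlated with each other across genes at 0.984 to 0.991 in amiNaa10 and 0.985 to 0.987 in the wild type control. Genes were tested with limma over all 16 arrays, and the threshold for a call was an adjusted p under 0.05 together with a change of over 1.5-fold. All adjusted p values and standard errors (SE) below are from this fit. The leaf photosynthetic markers averaged 10.2 to 10.5 per array in amiNaa10 and 10.2 to 10.4 in the wild type control, with *RBCS1A* at 13.39 on every one of these arrays. Under quantile normalization such an identical value means the same rank and not necessarily an equal amount of transcript. The floral identity genes *AP3* and *PI* had means of 1.91 and 1.71 in amiNaa10, against 2.28 and 1.62 in the wild type control, which is near the lower end of the scale. With limma, no member of the 8 lists of cell type markers was called, and without the adjustment of p (under 0.05, over 1.5-fold) 1 of 6 guard cell genes and 1 of 4 trichome genes passed, both lower. The guard cell gene was the anion channel *SLAC1* (-0.85), whose adjusted p of 0.0873 became 0.0341, a call, without the arrays labelled amiNaa15.

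The signal of *NAA10* was 5.16, 5.28, 4.92 and 5.01 on the amiNaa10 arrays, against 6.63, 6.59, 6.88 and 6.58 on the wild type control arrays. All 4 amiNaa10 arrays lay below all control arrays. The change was -1.58 (SE 0.34, adjusted p = 0.0137), a 2.98-fold lower signal, and the exact two-sided permutation test gave p = 0.0286, the smallest that 4 arrays against 4 allow. *NAA10* was also lower than in the droughted wild type, by a difference of -1.71 (SE 0.34, adjusted p = 0.00126). *NAA15* was at 9.55, 9.87, 9.53 and 9.46 in amiNaa10, against 9.10, 9.20, 9.0 and 9.12 in the wild type control. These arrays did not overlap either, and the permutation test gave the same p of 0.0286, as it does for every gene without overlap. Of all genes, 7.63% lay lower and 8.36% higher in amiNaa10 without overlap. The difference of 0.50 is under 1.5-fold, so that it was not called. Its adjusted p was 0.381 in the fit, where the arrays labelled amiNaa15 widen the spread of *NAA15*, and 0.0186 without them. On the arrays labelled amiNaa15, replicates 1 and 2 had the low *NAA10* signals of amiNaa10 (5.16 and 5.06) with high *NAA15*, and only replicates 3 and 4 had low *NAA15* (7.97 and 7.80). Replicates 1 and 2 thus go against their label in the targeted genes, and all 4 arrays enter the results below only through the shared estimate of the spread, unless named.

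**Figure D1:**
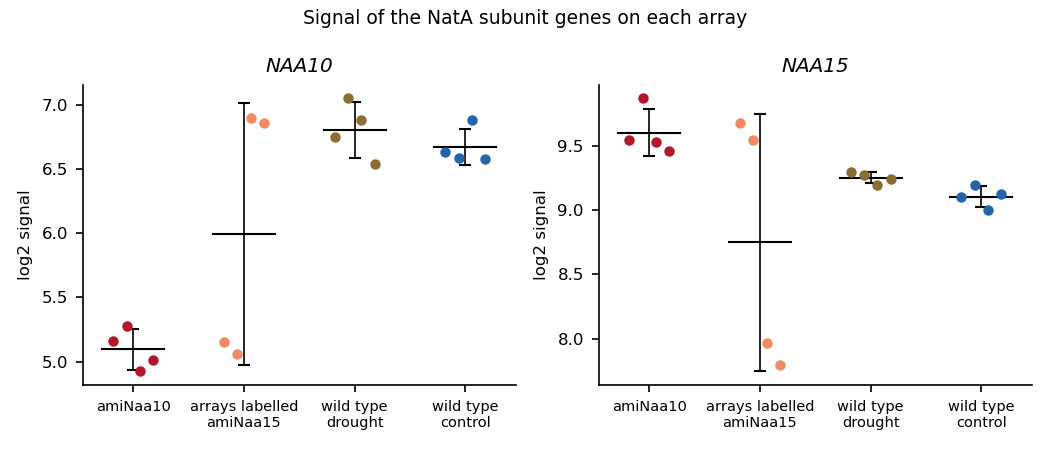
Log2 signal of *NAA10* and *NAA15* on each of the 16 arrays, by group. Points are arrays in the order of replicates 1 to 4, the horizontal line is the group mean and the bar the SD of 4 arrays. *NAA10* lies between 4.92 and 5.28 in amiNaa10 and between 6.58 and 6.88 in the wild type control, and the arrays labelled amiNaa15 fall into pairs.

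Other N-terminal acetyltransferase genes of the list, *TCU2*, *ATMAK3* and *MAK10*, changed by 0.39, -0.10 and 0.02 and were not called. *NAA20*, *NAA50*, *NAA60*, *NAA40* and *HYPK* are not described, because their symbol could not be paired with the locus. The list of enzymes that act just before or after NatA held 13 genes for methionine aminopeptidases, peptide deformylases and the N-degron pathway, the route that degrades proteins according to their first residue. By limma none of them was called, and none passed with p unadjusted, with changes between -0.28 (the ubiquitin ligase *PRT1*) and 0.52 (the aminopeptidase *MAP1B*). The 35 listed genes of proteasome subunits stayed between -0.16 and 0.21, with a median of -0.01. None of these 35 and none of the 4 listed genes of alternative respiration was called by limma or passed with p unadjusted. Other proteasome subunits, among them *RPN2A*, *RPN3A*, *RPN7* and *RPN11*, were left out because their symbol could not be paired with the locus.

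Of 27827 genes, 812 (2.92%) were called lower and 682 (2.45%) higher in amiNaa10. The falls were the deeper changes. More than 4-fold lower signals were found for 88 genes and more than 4-fold higher signals for 25, and 22 genes fell but 1 rose more than 8-fold. The median change of the genes called lower was -0.96, of those called higher 0.83, and of all genes 0.018. Many calls were lost with 1 array left out. Leaving out amiNaa10 replicate 1 gave 431 lower and 344 higher genes, and leaving out amiNaa10 replicate 2 gave 306 and 250. Of the control arrays, leaving out replicate 1 gave 491 lower and 336 higher genes, and leaving out replicate 3 gave 418 and 335. Calls that held with each of these 8 arrays left out in turn were 276 lower (0.992% of all genes) and 193 higher (0.694%). They are named below as kept, and where a named call was not kept, the arrays without which it was lost are given. Leaving out an array also leaves fewer arrays and alters the adjustment of p, so a lost call need not reflect that array's own value. Without amiNaa10 replicate 2, the change of *NAA10* was larger (-1.64), yet its adjusted p in limma was 0.0398, against 0.0137 with all arrays.

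Arrays also differed in where they lay within their group among the called genes. Among the 812 genes called lower, amiNaa10 replicate 2 was the lowest array of its group in 69.6% of genes and replicate 3 the highest in 64.9%, against 29.4% of all genes and 6568 of all 27827 genes. Among the 682 genes called higher, amiNaa10 replicate 2 was the highest of its group in 60.9%, against 30.4% among all genes, and replicate 3 the lowest in 51.9%, against 24.1%. In both directions replicate 2 thus lay farthest from the wild type and replicate 3 nearest to it. In the wild type control, replicate 3 was highest in 50.6% of the genes called lower and replicate 1 lowest in 44.9% of those called higher, against 25.2% and 23.2% among all genes.

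**Figure D2:**
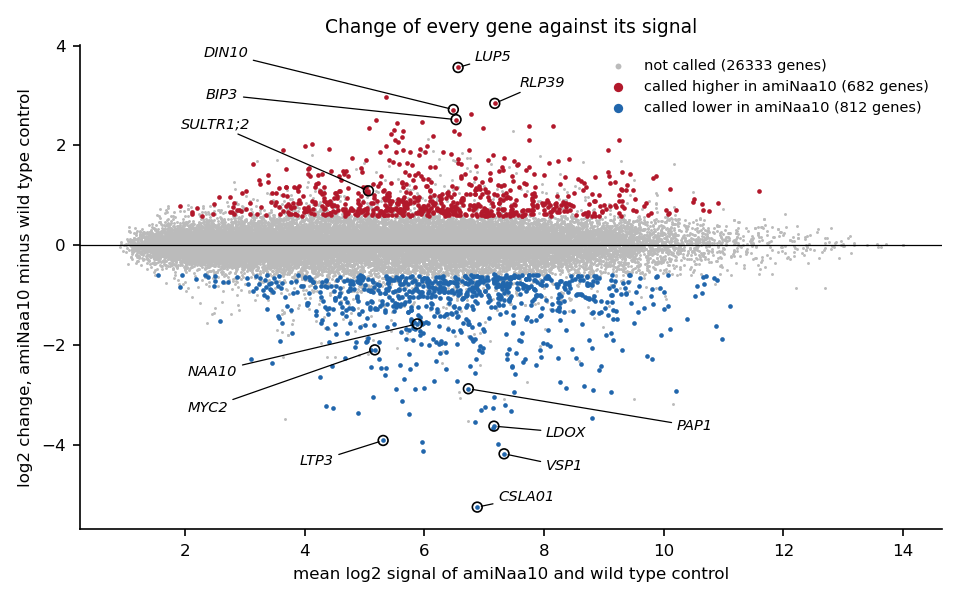
Log2 change of every gene, amiNaa10 minus wild type control, against the mean log2 signal of both groups. Each point is a gene, with those called higher in red, those called lower in blue and named genes ringed. The 812 falls reach -5.25 (*CSLA01*), whereas the 682 rises reach 3.56 (*LUP5*).

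The 12 largest falls and 12 largest rises with a gene symbol are given next or with their lists. *CSLA01*, a glucomannan synthase of the cell wall, fell by 5.25 (SE 0.86, adjusted p = 0.00535, kept). *IGMT5*, which methylates indole glucosinolates, had signals of 4.07, 3.77, 4.14 and 4.23 in amiNaa10, against 5.87, 7.85, 8.66 and 7.33 in the wild type control. The amiNaa10 arrays were tightly grouped and low, the control arrays were scattered and high, and the change was -3.37 (SE 0.69, adjusted p = 0.0114, kept). The monoterpene synthase *TPS10* (AT2G24210) was between 2.64 and 2.96 in amiNaa10, against 3.66, 7.34, 7.66 and 5.73 in the wild type control. Its change of -3.26 (adjusted p = 0.0157) was not called without wild type control replicate 3. The Nudix hydrolase *NUDT24* fell by 3.24 (SE 0.58, adjusted p = 0.00701, kept) and its difference from drought was -4.57 (adjusted p = 3.96e-05). The storage protein *VSP1* (-4.18), the ornithine acetyltransferase *NATA1* (-3.97), the myrosinase-binding protein *MBP1* (-3.66), the jasmonate-regulated oxygenase *JRG21* (-3.37) and the beta-amylase *BAM5* (-3.31) were the other large falls outside the flavonoid pathway and the lipid transfer proteins. All 5 were lost without amiNaa10 replicate 2, and all but *NATA1* were lost without amiNaa10 replicate 1 or wild type control replicate 3. *JRG21* was also lost without amiNaa10 replicate 4. In *NATA1* the amiNaa10 arrays were at 5.04, 4.81, 6.18 and 4.94, against 8.17, 8.26, 10.89 and 9.55 in the wild type control, with replicate 3 the highest in both groups.

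Among the rises, the triterpene cyclase *LUP5* was at 8.24, 9.54, 7.89 and 7.71 in amiNaa10, against 4.05, 5.95, 3.33 and 5.81 in the wild type control. Every amiNaa10 array exceeded every control array, and control replicates 1 and 3 were lower than 2 and 4. The change was 3.56 (SE 0.70, adjusted p = 0.0100, kept), an 11.8-fold higher signal. The metacaspase *MC2*, a cysteine protease of the cell death machinery, rose 4.29-fold (adjusted p = 0.0132, not called without amiNaa10 replicate 2). *EDA36* rose by 2.02 (SE 0.43, adjusted p = 0.0137, kept). The glucanase *BG3* and the receptor-like kinase *CRK23* rose by 2.47 and 2.28. Both calls were lost without amiNaa10 replicate 1 or 2 or wild type control replicate 1 or 3. Of the other named rises, the cell wall invertase-like *cwINV6* rose by 2.18 (adjusted p = 0.0297), the fatty acid elongase *KCS12* by 1.99 (adjusted p = 0.0204), the wall-modifying *XTH25* by 1.98 (adjusted p = 0.0186) and *PCR1* by 1.91 (adjusted p = 0.0486). These 4 calls were all lost without amiNaa10 replicate 2 or wild type control replicate 1. All but *XTH25* were also lost without wild type control replicate 3, all but *cwINV6* without amiNaa10 replicate 1, and *cwINV6* and *PCR1* without amiNaa10 replicate 3 or 4.

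Many jasmonate genes were called lower. Jasmonates are lipid hormones made from plastid linolenic acid, and their signal releases MYC transcription factors from the JAZ repressors to switch on wound, storage protein and secondary metabolism genes. Of 13 synthesis genes, 7 were called lower and none higher, against 2.92% and 2.45% of all genes, and these shares stand behind every count of called list members below. All 13 changes were below 0 with a median of -1.47. Of 22 response genes, 15 were called lower and none higher, all 22 changes were below 0, and the median was -1.92. In 12 of the 13 and 17 of the 22 genes the amiNaa10 arrays lay wholly below the control arrays, against 7.63% of all genes.

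*MYC2*, the transcription factor at the head of the response, was at 4.07, 3.63, 4.64 and 4.17 in amiNaa10, against 5.98, 6.13, 6.52 and 6.25 in the wild type control. The groups were more than 1 unit apart. It fell 4.28-fold, with a change of -2.10 (SE 0.29, adjusted p = 0.00278, kept). *AOS*, allene oxide synthase at the committed step of jasmonate synthesis, was at 8.42, 7.58, 9.56 and 8.93 in amiNaa10, against 10.31, 11.12, 11.20 and 10.71 in the wild type control. It fell by 2.21 on the log2 scale (SE 0.44, adjusted p = 0.0108, kept), without overlap. The allene oxide cyclase *AOC1* was at 5.73, 5.22, 7.23 and 5.93, against 8.26, 9.21, 9.81 and 8.62, with replicate 3 the highest array in both groups. Its change of -2.95 (SE 0.64, adjusted p = 0.0147) was not called without amiNaa10 replicate 2. The same held for its near copy *AOC2* (-2.29) and for *OPR3* (-1.90), the reductase of the jasmonate precursor.

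Kept with every array left out were, beside *MYC2*, the repressor *JAZ3* (-0.77, SE 0.16, adjusted p = 0.0122) and the chlorophyllase *CLH1* (-2.90, SE 0.57, adjusted p = 0.0100), a gene known for its strong induction by jasmonates. The vegetative storage protein *VSP2* was at 2.05, 1.85, 3.23 and 1.96 in amiNaa10, against 4.17, 4.14, 5.96 and 4.28 in the wild type control. The amiNaa10 signals lay near the lower end of the scale, as did those of *TPS10*, so that the size of these changes may be understated. Replicate 3 stood above the others in both groups, the groups did not overlap, and the change of *VSP2* was -2.36 (SE 0.52, adjusted p = 0.0153, not called without amiNaa10 replicate 2). *JAZ10* had a change of -2.95 but an adjusted p of 0.0606, with 6.98, 7.35, 9.48 and 8.38 in the wild type control. The lipoxygenase *LOX2* had -0.85 with an adjusted p of 0.0884. These counts changed with 1 array left out. With amiNaa10 replicate 1 left out, 4 of the synthesis and 5 of the response genes were called, and with replicate 2 left out 1 and 3. Leaving out amiNaa10 replicate 4 gave 6 and 9, and leaving out wild type control replicate 3 gave 4 and 4. The mean signal of the 22 response genes was 6.73, 6.55, 7.07 and 6.52 in amiNaa10, against 8.26, 8.25, 9.62 and 8.77 in the wild type control, where replicate 3 stood highest.

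Against the droughted wild type, 8 of the 13 synthesis genes and 12 of the 22 response genes were lower in amiNaa10 and none higher, where 8.17% of all genes were lower and 9.11% higher, the shares behind all counts against drought below. *MYC2* was at 6.14, 6.29, 6.88 and 5.32 in drought, which gives a difference of -2.03 (SE 0.29, adjusted p = 0.000115). Drought replicate 4 was the lowest of its group in *MYC2*, *AOS* and *AOC1*, at 5.32, 9.45 and 6.27. Against the wild type control, drought itself called 0 of the synthesis genes and 2 of the response genes lower, and none higher, where 7.15% of all genes were lower and 6.27% higher.

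Genes called lower lay at early and at late steps of the flavonoid pathway. Flavonoids are made from coumaroyl-CoA through chalcone, flavanone and dihydroflavonol to flavonols and the red anthocyanins, and the late anthocyanin steps are switched on by a complex of the MYB factor PAP1, the bHLH factor TT8 and TTG1. Of 22 genes, 12 were called lower and none higher, 8 of them kept, against 2.92% lower and 0.992% kept of all genes, with a median change of -1.44. The called genes comprised the early enzymes *TT4*, *TT5*, *CHIL*, *F3H* and *TT7*, the late enzymes *LDOX*, *UF3GT* and *TT19*, the glycosyltransferases *UGT78D1* and *UGT78D2*, and both regulators. The 4 that were not kept, *TT4*, *LDOX*, *UF3GT* and *TT19*, were lost without amiNaa10 replicate 2 or wild type control replicate 1 or 3, *TT4*, *UF3GT* and *TT19* also without amiNaa10 replicate 1, and *TT4* also without wild type control replicate 4.

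*PAP1* (AT1G56650) was at 4.48, 4.57, 6.47 and 5.68 in amiNaa10, against 8.49, 7.60, 8.56 and 8.04 in the wild type control. It was lower on every amiNaa10 array, fell 7.34-fold with a change of -2.88 (SE 0.45, adjusted p = 0.00453, kept), and differed from drought by -3.56 (adjusted p = 4.02e-05). *TT8* was at 4.30, 3.51, 5.99 and 4.48, against 7.67, 6.37, 8.05 and 7.65. Replicate 2 was lowest in both groups, the groups did not overlap, and the change was -2.86 (SE 0.55, adjusted p = 0.00906, kept). The anthocyanidin synthase *LDOX* was at 5.67, 2.24, 7.52 and 5.97 in amiNaa10, against 9.16, 7.93, 9.55 and 9.26 in the wild type control. Here the amiNaa10 arrays spanned more than 5 units, and the change of -3.62 (SE 0.87, adjusted p = 0.0214) was not called without amiNaa10 replicate 2, wild type control replicate 1 or wild type control replicate 3. *DFR*, the step before it, had 8.76, 5.05, 10.84 and 9.63, against 11.93, 10.71, 12.23 and 12.15, and at an adjusted p of 0.0541 it was not called despite a change of -3.19, and amiNaa10 replicate 3 exceeded control replicate 2.

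Other enzymes fell less deeply. Chalcone isomerase *TT5* fell by 1.59 (SE 0.29, adjusted p = 0.00713, kept). The flavonol rhamnosyltransferase *UGT78D1* fell by 0.94 (SE 0.19, adjusted p = 0.0122, kept), and the glucosyltransferase *UGT78D2* was at 2.96, 2.77, 3.67 and 3.11 in amiNaa10, against 4.77, 4.36, 4.13 and 4.41 in the wild type control, a change of -1.29 (SE 0.25, adjusted p = 0.00896, kept). Regulators of the flavonol branch were not called, with changes of -0.20 for *MYB12* and -0.23 for the light-signalling factor *HY5*, and flavonol synthase *FLS1* had -0.33 (adjusted p = 0.240). *PAP2*, the near relative of *PAP1*, had 3.75, 4.35, 3.84 and 3.81, against 3.76, 3.33, 3.17 and 3.95, and a change of 0.39 (adjusted p = 0.531). In drought *PAP2* rose by 1.76, and the difference of amiNaa10 from drought was -1.37 (adjusted p = 0.00555). Of the 22 genes, 14 were lower and 1 higher in amiNaa10 than in drought, against 8.17% and 9.11% of all genes.

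In the phenylpropanoid pathway upstream, which supplies coumaroyl-CoA and the lignin precursors, 8 of 21 genes were called lower, against 2.92% of all genes, and none higher, with a median of -0.45. *PAL1*, phenylalanine ammonia-lyase at its entry, was at 5.70, 5.62, 6.25 and 6.18 in amiNaa10, against 7.11, 6.80, 8.35 and 7.83 in the wild type control. It fell 3.00-fold, by 1.58 on the log2 scale (SE 0.33, adjusted p = 0.0119, kept). *PAL2* and *4CL3* were the other kept calls, and *PAL3* had a change of 0.68 with an adjusted p of 0.102. The count was 4 without amiNaa10 replicate 1, 3 without replicate 2, and, of the control arrays, 5 with replicate 1 and 3 with replicate 3 left out.

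**Figure D3:**
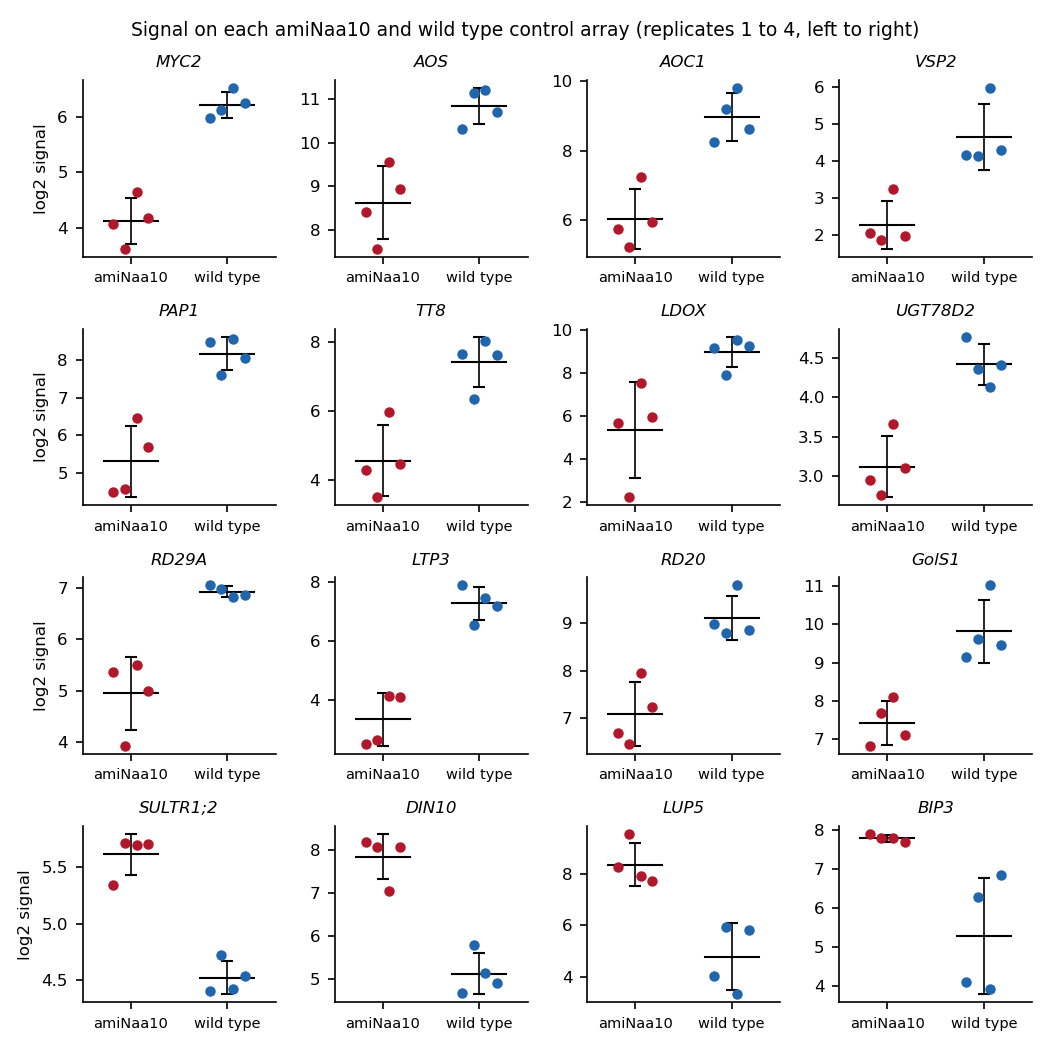
Log2 signal of 16 genes on the amiNaa10 arrays (left) and the wild type control arrays (right), 1 panel a gene. Points are replicates 1 to 4 from left to right, with the mean and SD of 4 arrays. The rows hold jasmonate, flavonoid, drought marker and higher genes, and the groups do not overlap in any panel.

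Some markers of abscisic acid and drought were called lower in amiNaa10 than in the watered wild type, and most were not called. Abscisic acid is the hormone of water shortage, which acts through the PP2C phosphatases ABI1, ABI2, HAB1 and HAI1 and the ABF transcription factors on genes for protective proteins, lipid transfer proteins and compatible sugars. Of 35 genes, 12 were called lower, 5 of them kept, and none higher, against 2.92% lower and 0.992% kept of all genes. Changes were below 0 in 30 of the 35, and the median was -0.54. The lower count was 6 with amiNaa10 replicate 2, wild type control replicate 1 or wild type control replicate 3 left out.

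The lipid transfer protein *LTP3* was at 2.52, 2.65, 4.15 and 4.11 in amiNaa10, against 7.88, 6.55, 7.44 and 7.20 in the wild type control. The change of -3.91 (SE 0.50, adjusted p = 0.00178, kept) is a 15.0-fold lower signal, with the lowest control array more than 2 units above the highest amiNaa10 array. In drought it was at 9.85, 9.41, 10.23 and 8.34, and the difference of amiNaa10 from drought was -6.10 (SE 0.50, adjusted p = 1.32e-06). Its neighbour in sequence, *LTP4*, fell by 3.05 (SE 0.53, adjusted p = 0.00636, kept) and differed from drought by -6.04, although the array may not separate such close copies. *RD29A*, a classical drought and cold reporter, was at 5.37, 3.92, 5.50 and 5.0 in amiNaa10, 8.88, 8.07, 8.44 and 7.54 in drought, and 7.05, 6.98, 6.82 and 6.87 in the wild type control. The 3 groups were fully separated, with amiNaa10 lowest and drought highest, and the changes were -1.98 (SE 0.34, adjusted p = 0.00634, kept) against the control and -3.28 (SE 0.34, adjusted p = 8.76e-06) against drought.

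The caleosin *RD20* was at 6.70, 6.45, 7.96 and 7.24 in amiNaa10, against 8.99, 8.80, 9.80 and 8.86 in the wild type control, a change of -2.03 (SE 0.40, adjusted p = 0.0101, kept). The galactinol synthase *GolS1*, the first enzyme towards raffinose, was at 6.83, 7.68, 8.10 and 7.11, against 9.16, 9.61, 11.01 and 9.46, a change of -2.38 (SE 0.46, adjusted p = 0.00956, kept). Neither overlapped between the groups, and neither was changed by drought beyond the threshold (0.22 and -0.16). The remaining calls were *GolS2* (-1.58), *HB-7* (-1.24), *ERD10* (-1.13), *RD26* (-1.06), *KIN2* (-0.96), *HAI1* (-0.70) and *RD22* (-0.70), none of which was kept. Leaving out amiNaa10 replicate 2 lost all 7 but *ERD10*, leaving out wild type control replicate 1 all but *RD26*, and leaving out wild type control replicate 3 all but *RD22*. *GolS2*, *HB-7*, *KIN2* and *RD26* were also lost without amiNaa10 replicate 1, *HB-7*, *KIN2* and *RD26* without amiNaa10 replicate 4, *KIN2* and *RD26* without wild type control replicate 2, and *GolS2*, *KIN2* and *RD22* without wild type control replicate 4.

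Not every marker was called in amiNaa10. *RAB18* (AT5G66400) was at 5.29, 4.65, 5.57 and 5.51, against 6.60, 6.12, 6.49 and 6.37 in the wild type control, a change of -1.14 with an adjusted p of 0.0528, and in drought it rose by 1.67. *LEA7* was at 1.70, 1.3, 1.79 and 1.43, against 1.70, 1.22, 1.47 and 1.58, near the lower end of the scale, with a change of 0.06 (adjusted p = 0.862). *RD29B* had the highest change of the list, 0.72, with an adjusted p of 0.429. Set directly against drought, 27 of the 35 markers were lower in amiNaa10 and 1 was higher, where 8.17% and 9.11% of all genes were. Drought called 20 of them higher and 2 lower against the same control arrays. The list of 6 guard cell markers, cells in which abscisic acid acts strongly, averaged 6.23, 5.87, 6.21 and 6.29 per array in amiNaa10, 6.57, 6.70, 6.32 and 6.97 in drought and 6.61, 6.38, 6.56 and 6.31 in the wild type control. None of the 6 was called in amiNaa10, although 5 of the 6 changes were below 0 and *SLAC1* was called without the arrays labelled amiNaa15, and the part of guard cells in the lower markers was not tested.

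**Figure D4:**
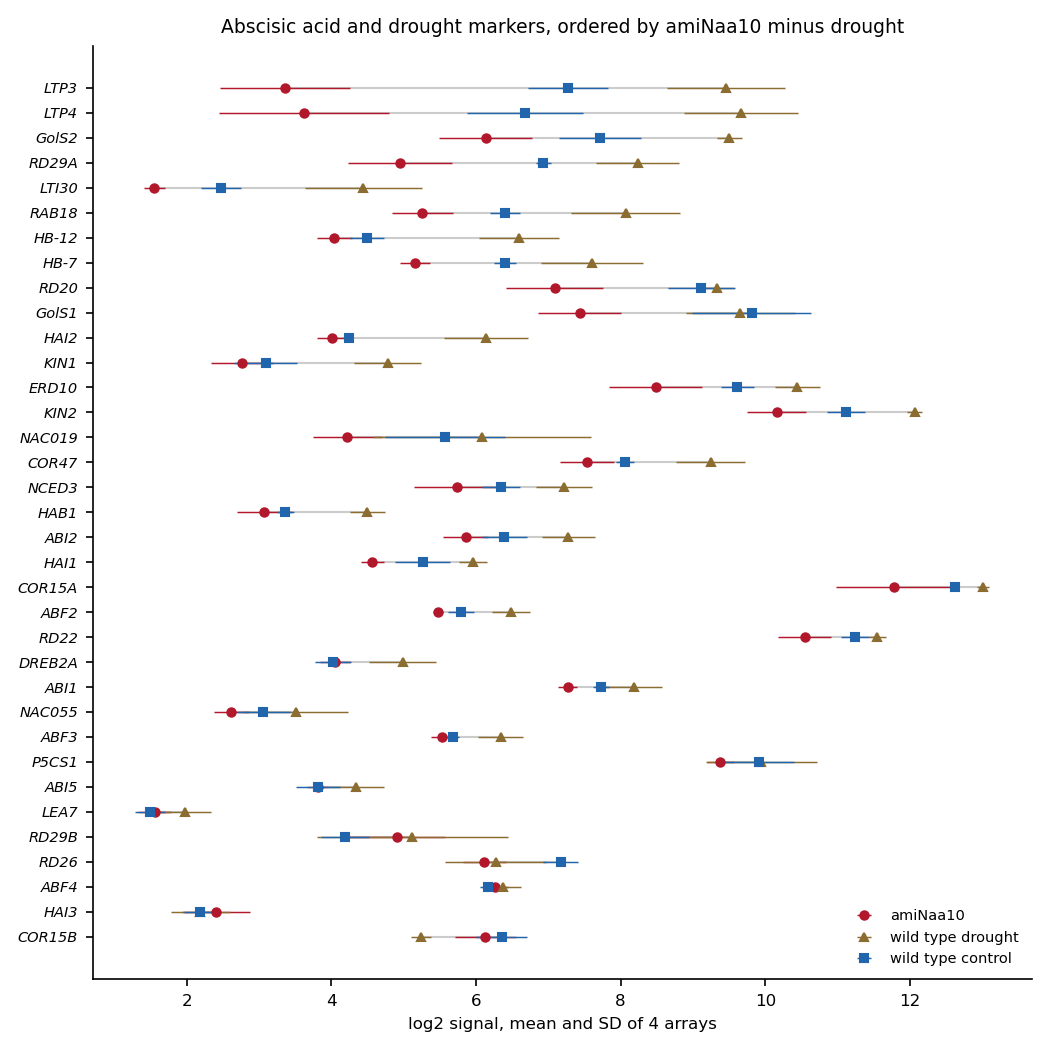
Mean log2 signal of the 35 abscisic acid and drought markers in amiNaa10, in the droughted wild type and in the wild type control, with the SD of 4 arrays. Genes are ordered by the difference between amiNaa10 and drought, which runs down to -6.10 for *LTP3* at the top, and in most rows amiNaa10 lies left of both wild type groups.

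Genes of sulfur metabolism that changed in amiNaa10 were lower, with *SULTR1;2* as the exception. Sulfate is taken up by SULTR transporters, activated by ATP sulfurylase to APS and then reduced by APS reductase for cysteine or phosphorylated by APS kinase to the sulfate donor of glucosinolates. Of 26 genes of uptake and assimilation, 6 were called lower and 1 higher, against 2.92% and 2.45% of all genes, with a median of -0.37. The gene that rose was *SULTR1;2*, known as the main sulfate uptake transporter of roots. It was at 5.34, 5.71, 5.70 and 5.70 in these leaves in amiNaa10, 3.99, 4.35, 4.20 and 4.35 in drought and 4.41, 4.72, 4.42 and 4.54 in the wild type control. All 4 amiNaa10 arrays were above all 8 others, with a change of 1.09 (SE 0.20, adjusted p = 0.00701, kept) against the control and of 1.39 (adjusted p = 9.14e-05) against drought. Of the falls, that of the APS kinase *APK1* was kept (-1.30, SE 0.27, adjusted p = 0.0121), and that of the serine acetyltransferase *SERAT2;2* (-1.33) was lost only without amiNaa10 replicate 2. The lower count was 2 without amiNaa10 replicate 1, 1 without replicate 2 and 2 without wild type control replicate 3.

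Of 8 genes of the sulfur starvation response, 3 were lower and none higher. *SDI1*, which is induced by sulfur deficiency and represses glucosinolate synthesis, was at 5.51, 4.23, 5.31 and 5.13 in amiNaa10, against 6.02, 7.04, 6.84 and 6.17 in the wild type control. The change was -1.47 (SE 0.30, adjusted p = 0.0111, kept), and only this call was left without amiNaa10 replicate 1. Glucosinolates and camalexin are sulfur-rich defence compounds. Of 18 genes of aliphatic glucosinolate synthesis 5 were lower and none higher, with 17 changes below 0 and a median of -0.61, and of 18 genes of indole glucosinolate and camalexin synthesis 3 were lower and none higher. None of these 8 calls was kept, and 2.92% of all genes were lower. The indole glucosinolate gene *IGMT5*, whose fall was kept, is not on these lists. The aliphatic count was 1 without amiNaa10 replicate 1, 0 without replicate 2 and 8 without replicate 3. Of the control arrays, leaving out replicate 1 gave 3, replicate 2 gave 1 and replicate 3 gave 0. The indole count was 1 without amiNaa10 replicate 1 and 0 without amiNaa10 replicate 2 or wild type control replicate 3. *MYB34*, the activator of indole glucosinolate synthesis, was at 5.41, 4.74, 5.73 and 5.58, against 6.65, 7.46, 8.25 and 6.91, a change of -1.95 (SE 0.45, adjusted p = 0.0181), which was lost without amiNaa10 replicate 2 or wild type control replicate 3.

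Among the higher genes were those of receptors and of the endoplasmic reticulum. Receptor-like proteins and cysteine-rich receptor-like kinases (CRKs) are large families at the plasma membrane, many of them tied to the perception of microbes and to reactive oxygen. Both lists were taken after the values had been seen, so that their counts describe these data and test nothing. Of 38 CRK genes, 14 were called higher and none lower, 5 of them kept, against 2.45% higher and 0.694% kept of all genes, with a median of 0.64 and 33 changes above 0. Of 52 receptor-like protein genes, 14 were higher, 3 of them kept, and 1 was lower, with a median of 0.47. Against drought, 24 of the 38 and 15 of the 52 were higher in amiNaa10 and 1 and 6 lower, against 9.11% and 8.17% of all genes. Because members of both families lie in clusters of similar genes, such as *CRK14*, *CRK15* and *CRK16*, which neighbour each other and were all called, the array may not separate every copy.

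*CRK5* was at 6.87, 6.94, 6.75 and 6.70 in amiNaa10, against 5.27, 5.90, 5.55 and 6.44 in the wild type control, with a change of 1.03 (SE 0.22, adjusted p = 0.0132, kept). *CRK20* rose by 1.07, *CRK16* by 1.06, *CRK34* by 0.93 and *CRK2* by 0.67, and all 4 were kept. *RLP36* was at 8.12, 8.30, 7.42 and 7.87 in amiNaa10, against 5.41, 6.91, 5.67 and 6.86, a change of 1.72 (SE 0.33, adjusted p = 0.00949, kept). In both genes the lowest amiNaa10 array was above the highest control array, and control replicate 1 was the lowest. *RLP35* (a 2.62-fold rise) and *RLP46* (a 2.82-fold rise) were also kept. The receptor-like protein that fell, *RLP6*, was at 3.72, 3.79, 4.52 and 4.20, against 6.34, 5.22, 7.13 and 5.94, a change of -2.10 (SE 0.43, adjusted p = 0.0122, kept). *RLP39* had level amiNaa10 arrays and scattered control arrays, with 8.74, 8.59, 8.80 and 8.26 in amiNaa10, against 3.57, 7.91, 4.13 and 7.42 in the wild type control. Its change of 2.84 (SE 0.79, adjusted p = 0.0377) was called without wild type control replicate 2 or 4 but not without any of the other 6 arrays. The count of higher CRK genes was 6 without amiNaa10 replicate 1, 5 without replicate 2, and 6 with wild type control replicate 1 or 3 left out. For receptor-like proteins it was 6 and 5 with the same amiNaa10 arrays and 5 with either control array left out.

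Salicylate is a hormone of defence against biotrophs. Of 20 genes of its synthesis and response, 1 was called higher and none lower, which is near the 2.45% of all genes, and 6 were higher with p unadjusted. The gene called was *EDS1*, a hub of immune signalling, with 8.38, 8.25, 8.09 and 8.12 in amiNaa10, 6.30, 6.63, 6.46 and 6.50 in drought and 6.79, 7.62, 7.31 and 7.98 in the wild type control. The change was 0.79 (SE 0.22, adjusted p = 0.0419), and of the 8 arrays the call could spare only wild type control replicate 2 or 4. The defence marker *PR1* was at 8.03, 9.74, 8.20 and 8.55, against 5.55, 6.99, 5.25 and 7.53 in the wild type control. These arrays did not overlap, with control replicates 1 and 3 lowest, and the change of 2.30 had an adjusted p of 0.0509. Without wild type control replicate 4, 5 genes of the list were called higher. In drought *PR1* was at 2.90, 3.93, 4.01 and 2.85, so that amiNaa10 was 5.21 above drought (adjusted p = 5.21e-05), and 14 of the 20 genes were higher and none lower in amiNaa10 than in drought, against 9.11% of all genes higher. The mean signal of the 20 genes was 7.25, 7.24, 6.92 and 6.96 in amiNaa10, 5.05, 5.46, 5.97 and 5.24 in drought and 5.94, 6.85, 6.25 and 7.35 in the wild type control.

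A list of 16 genes of the unfolded protein response, which raises chaperones and folding enzymes when proteins misfold in the endoplasmic reticulum, was made after the values had been seen. Of these, 4 were called higher, against 2.45% of all genes, and none lower, with a median of 0.72. *BIP3*, its inducible Hsp70 chaperone, was at 7.90, 7.78, 7.79 and 7.69 in amiNaa10, 3.64, 3.64, 4.67 and 3.10 in drought and 4.08, 6.27, 3.90 and 6.84 in the wild type control. The amiNaa10 arrays were nearly level and the control arrays differed by nearly 3 units, with replicates 1 and 3 low. The change of 2.52 (SE 0.58, adjusted p = 0.0190) was not called without amiNaa10 replicate 1 or 2 or wild type control replicate 1 or 3. Of the list, 0 genes were called without amiNaa10 replicate 1, amiNaa10 replicate 2, wild type control replicate 1 or wild type control replicate 3, and 2 without amiNaa10 replicate 3. Against drought, 11 of the 16 were higher in amiNaa10, where 9.11% of all genes were, and none lower. The cytosolic and other heat shock proteins of an 11-gene list gave 2 higher calls, *BIP3* again and the factor *HSFA7A* (0.61), which was lost without amiNaa10 replicate 2 or wild type control replicate 3. The count of this list was 1 without amiNaa10 replicate 1 or wild type control replicate 1 and 0 without amiNaa10 replicate 2 or wild type control replicate 3.

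**Figure D5:**
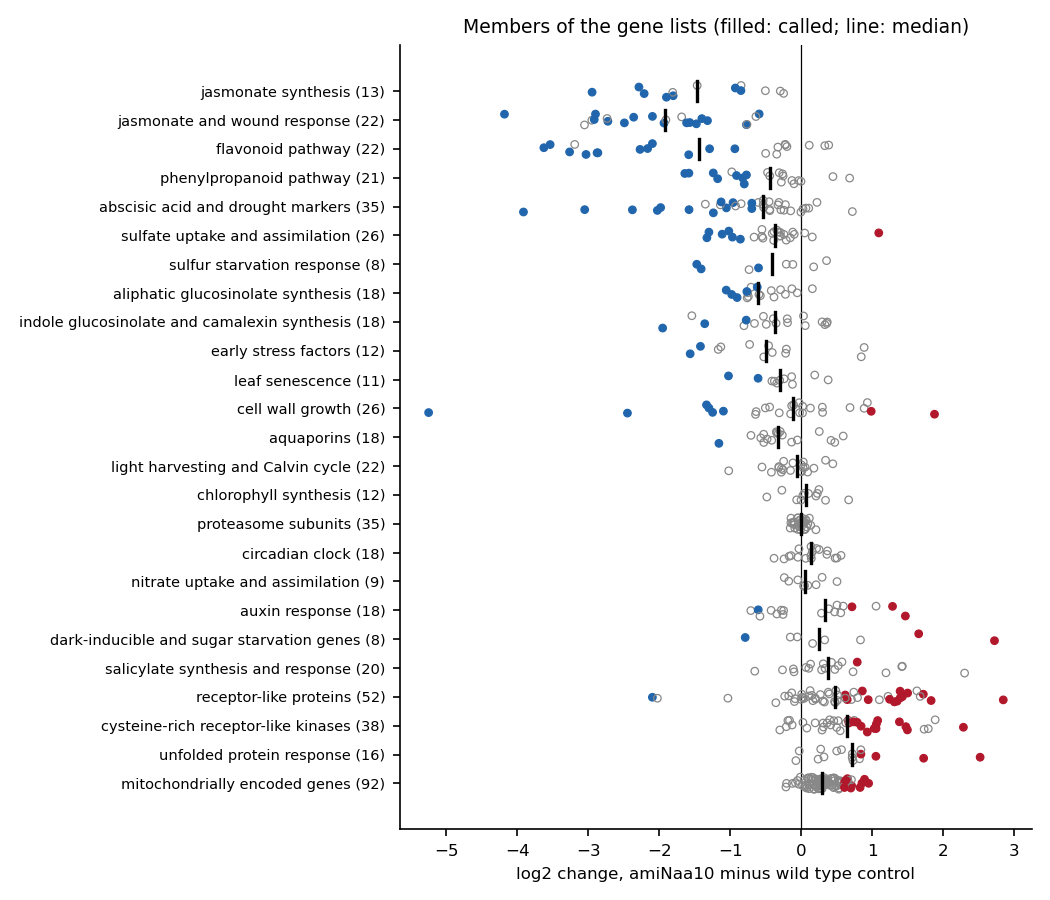
Log2 change, amiNaa10 minus wild type control, of the members of 25 gene lists, with the number of members in brackets. Filled points are called (blue lower, red higher), open points are not called, and the black line is the median, which runs down to -1.92 for the jasmonate and wound response and up to 0.72 for the unfolded protein response.

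Genes known for induction by darkness and sugar shortage went in both directions. The raffinose synthase *DIN10* was at 8.18, 8.08, 7.05 and 8.07 in amiNaa10, 3.63, 4.42, 3.52 and 4.27 in drought and 4.67, 5.79, 5.13 and 4.91 in the wild type control. It was highest on every amiNaa10 array, rose 6.58-fold against the control (2.72, SE 0.41, adjusted p = 0.00368, kept) and was 3.89 above drought. *SEN1* (AT4G35770), a dark-induced gene of ageing leaves, was at 8.52, 9.46, 8.72 and 8.93, against 7.09, 6.97, 8.02 and 6.95 in the wild type control. It rose by 1.65 (SE 0.34, adjusted p = 0.0122, kept), whereas in drought it fell by 1.87 on the log2 scale. The phosphomannose isomerase *DIN9* fell by 0.79 (SE 0.18, adjusted p = 0.0160, kept), and the other 5 of the 8 genes were not called.

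Of 11 leaf senescence genes, 2 were lower, against 2.92% of all genes, and none higher in amiNaa10. They were the pheophytinase *PPH* (-1.03, SE 0.20, adjusted p = 0.0103, kept) and the pheophorbide oxygenase *PAO* (-0.61, adjusted p = 0.0317), both enzymes of chlorophyll breakdown. The call of *PAO* was lost without amiNaa10 replicate 1, amiNaa10 replicate 2 or wild type control replicate 1, 3 or 4. *PPH* was at 6.78, 6.90, 7.15 and 6.92, against 7.77, 7.62, 8.58 and 7.86, without overlap. Chlorophyll synthesis (12 genes, median 0.07) and light harvesting with the Calvin cycle (22 genes, median -0.06) had no gene called by limma, and with p unadjusted 1 gene passed in each, higher in the first and lower in the second. In drought, where 7.15% of all genes fell, 10 of the 12 chlorophyll synthesis genes did, and the same number were higher in amiNaa10 than in drought.

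Cell wall genes were called in both directions as well. Of 26, 6 were lower, 5 of them kept, and 2 higher, against 2.92%, 0.992% and 2.45% of all genes. Among the falls were the glucomannan synthases *CSLA01*, *CSLA02* and *CSLA09*, with *CSLA01* at 3.97, 2.88, 5.85 and 4.35 in amiNaa10, 4.24, 5.0, 5.08 and 3.40 in drought and 8.51, 9.59, 10.80 and 9.14 in the wild type control. Both amiNaa10 and drought were thus far below the control and did not separate from each other (-0.17, SE 0.86, adjusted p = 0.917). *CSLA02* had a change of -1.25 (SE 0.24, adjusted p = 0.00945) and *CSLA09* of -1.30 (SE 0.24, adjusted p = 0.00766), both kept. The xyloglucan-modifying *XTH31* (-2.45) and the expansin *EXPA3* (-1.10) were kept as well, and the expansin *EXPA4* (-1.33) was lost without amiNaa10 replicate 2 or wild type control replicate 3. *XTH30* rose by 0.98 (SE 0.17, adjusted p = 0.00634, kept), whereas the rise of *XTH33* (1.87) was lost without amiNaa10 replicate 1 or 2 or wild type control replicate 1 or 3, which leaves 1 higher gene in each case. Against drought, 13 of the 26 were higher in amiNaa10 and 4 lower, where 9.11% and 8.17% of all genes were.

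In the auxin response, 3 of 18 genes were higher, against 2.45% of all genes, and 1 lower, which is near the 2.92% of all genes. The repressor *IAA29* was at 5.84, 5.97, 5.77 and 5.18 in amiNaa10, against 4.50, 4.73, 3.75 and 3.92 in the wild type control, a change of 1.46 (SE 0.24, adjusted p = 0.00496, kept). *GH3.5*, which conjugates auxin and salicylate to amino acids, rose by 1.28 (SE 0.18, adjusted p = 0.00296, kept). The arrays of the groups did not overlap in either gene. The factors *MYB70* (0.71) and *MYB44* (-0.61) were also called, and each was lost without amiNaa10 replicate 1, 2 or 4 or wild type control replicate 3 or 4. *MYB70* was also lost without amiNaa10 replicate 3 or wild type control replicate 1, and *MYB44* without wild type control replicate 2. In the list of 12 early stress factors, *ERF5* fell by 1.42 (SE 0.21, adjusted p = 0.00368, kept), and *STZ* (-1.56) was lost whichever of the 8 arrays was left out. Of 18 aquaporins, *PIP2;3* fell by 1.16 (adjusted p = 0.0383), a call that was lost without amiNaa10 replicate 1, 2 or 4 or wild type control replicate 2 or 3, while 4 aquaporins were called without wild type control replicate 4. No gene of the circadian clock (18 genes, median 0.14) or of nitrate uptake and assimilation (9 genes, median 0.04) was called by limma or passed with p unadjusted, whereas in drought 5 of the 9 nitrate genes fell and the same number were higher in amiNaa10 than in drought.

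Organelle genes were followed as well, in lists taken after the values had been seen, so that their counts are a description only. Of 92 mitochondrially encoded genes, 10 were called higher and none lower, 85 changes were above 0, and in 42 the amiNaa10 arrays lay wholly above the control arrays, against 8.36% of all genes. The median change was 0.30, and the mean signal per array was 8.64, 8.73, 8.73 and 8.61 in amiNaa10, 8.83, 8.79, 8.81 and 8.51 in drought and 8.27, 8.44, 8.30 and 8.40 in the wild type control. All amiNaa10 means exceeded all control means, and they lay within the drought means. *ATMG01180* rose by 0.95 (SE 0.16, adjusted p = 0.00568) and *ATMG00860* by 0.89 (SE 0.16, adjusted p = 0.00652), and these and *ATMG00290* and *ATMG00400* were kept. The count was 5 without amiNaa10 replicate 2, and of the control arrays leaving out replicate 1 gave 4 and replicate 3 gave 5. Of the 15 plastid genes none was called by limma or passed with p unadjusted, with a median of 0.15.

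On the arrays labelled amiNaa15, against the same control arrays, *PAP1* had a change of -2.33, *DIN10* of 2.80 and *MYC2* of -1.04. Replicates 1 and 2 of this group had the low *NAA10* and high *NAA15* signals of amiNaa10. Of the lists, 0 of 13 jasmonate synthesis, 1 of 22 jasmonate response and 11 of 22 flavonoid genes were called lower and none higher. Of all genes, 2.58% were lower and 2.09% higher. Set directly against amiNaa10, 0 of 27827 genes were called, and 360 passed with p unadjusted (under 0.05, over 1.5-fold). With replicates 1 and 2 against their label in the targeted genes, this count cannot tell whether lowering *NAA10* and lowering *NAA15* differ.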

How the data were processed

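Leaf RNA of 16 plants or pools was labelled with biotin and hybridized to Affymetrix AraGene-1_0-st arrays. The deposited values are log2 signals, 1 per gene, for which the authors ran quantile normalization after the background correction of RMA on a custom CDF of TAIR genes. The TAIR release behind it is not given in the sources used here, and no coordinates are printed. Samples were grouped by their labels. Of the 27827 loci, 27241 were found in the RefSeq table of assembly TAIR10.1, which gave 10557 a symbol, and *NAA10* and *NAA15* were named from the paper. Probes shared by close copies of a gene were not separated.

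Each gene was fitted with limma 3.58.1 in R 4.3.3 with a mean for each group of the 16 arrays, 12 residual degrees of freedom, moderated variances and Benjamini-Hochberg adjustment over all genes within each comparison, after the analysis of variance over groups in the methods. Genes with an adjusted p below 0.05 and over 1.5-fold were called. Labels call the replicates biological but do not say whether plants were pooled, so that p values measure the spread between these samples. With 4 arrays a group, their number limits the precision. In a simulation of amiNaa10 against the wild type control with 27827 genes, the fit called 71 of 100 genes with a true change of 1 (log2), 96 of 100 with 2, and 7 unchanged genes. Its noise was independent for each gene and array, so deviations that genes share on an array were not simulated.

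Named genes are *NAA10* and *NAA15*, the members of 33 lists (451 different genes, after 18 written members whose symbol the table does not pair with the locus and 1 gene outside the table were left out), and the 12 largest falls and 12 largest rises among called genes with a symbol, no overlap of arrays and a mean of at least 3 in the higher group. The lists of the unfolded protein response, of receptor-like proteins, of CRK genes and of organelle genes were taken after the values had been seen. Members and lists were chosen with earlier results of these data known, and no list was tested. Alternatives were other fold minimums, treat, no moderation, an unadjusted p, only the 2 groups, the replicate block, cyclic loess, array weights, no genes of low signal, and arrays left out. The residues at protein position 2 and the sequence of the artificial microRNA were not analysed here. Tables used pandas 2.3.3 under Python 3.11.15, and plots matplotlib 3.10.9.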

Additional observations from a re-analysis of the deposited data

Results flagged for a closer look

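In 228 groups of 4 arrays, the amiNaa10 and the wild type control arrays of the named called genes and of *NAA15*, without the lists taken after the values had been seen, the highest or the lowest array was set against the other 3. In 19 groups its gap exceeded Dixon's critical value for 4 samples, where chance marks about 1 in 20 groups.

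Of the list of jasmonate and wound response, these genes were *VSP2*, *JR1* and *HCHIB*. *VSP2* stood at 3.23 on amiNaa10 replicate 3, with the others between 1.85 and 2.05, and at 5.96 on wild type control replicate 3, with the others between 4.14 and 4.28. *JR1* was at 11.75 on wild type control replicate 3, against 9.52 to 9.88. The chitinase *HCHIB* was at 7.50 on wild type control replicate 2, against 8.32 to 8.48.

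Of the genes with large falls, *NATA1* stood at 6.18 on amiNaa10 replicate 3, against 4.81 to 5.04 on the others, and the beta-amylase *BAM5* at 10.54 on wild type control replicate 3, against 8.51 to 8.85. The flavonoid gene *TT19* was at 7.48 on wild type control replicate 2, against 8.92 to 9.07, and *C4H* at 8.59 on amiNaa10 replicate 3, against 8.24 to 8.28. Of the drought markers, *ERD10* was at 9.28 on wild type control replicate 2 (others 9.70 to 9.75), *KIN2* at 11.51 on wild type control replicate 3 (others 10.97 to 11.02) and *RD22* at 9.99 on amiNaa10 replicate 2 (others 10.70 to 10.74). Of the sulfur and glucosinolate genes, *SULTR1;2* was at 5.34 on amiNaa10 replicate 1 (others 5.70 to 5.71), *APS3* at 6.99 on amiNaa10 replicate 2 (others 7.96 to 8.07) and *IPMI1* at 9.76 on wild type control replicate 2 (others 9.07 to 9.16).

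*DIN10* was at 7.05 on amiNaa10 replicate 3 (others 8.07 to 8.18) and *SEN1* at 8.02 on wild type control replicate 3 (others 6.95 to 7.09). Of the wall genes, *XTH31* was at 4.91 on amiNaa10 replicate 2 (others 6.51 to 6.76), *EXPA3* at 8.03 on wild type control replicate 1 (others 7.50 to 7.57) and *XTH25* at 4.08 on wild type control replicate 1 (others 5.35 to 5.40).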

How the results depend on the processing

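The 1494 genes called in amiNaa10 (812 lower, 682 higher) were recounted under 20 alternatives. Under limma's treat, a test against a change of 1.5-fold rather than 0, there were 5 genes (3 lower, 2 higher), and *NAA10* (-1.58) had an adjusted p of 0.575. That fit held the arrays labelled amiNaa15, which widen the spread of *NAA10*, and treat was not run without them. A 2-fold minimum gave 611 (383 lower, 228 higher), no moderation 944 (515 lower, 429 higher), and an unadjusted p 2398 (1293 lower, 1105 higher). Without a fold minimum 1150 genes were higher. With 1 array left out the count ran over 556 to 1585, of lower genes over 306 to 902 and of higher genes over 250 to 725. The change of *NAA10* was called under every alternative but treat.

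The counts stayed within 1.5 times of these under the other alternatives, which were only the 2 groups, without the arrays labelled amiNaa15, without their replicates 1 and 2 (chosen after seeing the data), array weights, cyclic loess and without the 25% lowest genes. Without replicates 1 and 2 of the arrays labelled amiNaa15, the named calls of *PCR1*, *STZ*, *MYB70*, *MYB44*, *PIP2;3*, *RLP39*, *CRK15* and *EDS1* were lost, and *PR1*, *DFR*, *RAB18* and *SLAC1* were called. With amiNaa10 replicate 4 left out, 1 gene was called higher in each of the lists of the clock, of enzymes around NatA and of nitrate, without wild type control replicate 4 also 1 of nitrate, and without wild type control replicate 2 1 plastid gene. The deviations of same-numbered arrays correlated across genes at -0.06, -0.01, 0.17 and -0.06, and those of differently numbered arrays at -0.15 to 0.14. Such values over all genes cannot tell whether same-numbered samples share a batch that acts on some genes. With the replicate block 1626 genes were called (907 lower, 719 higher), of which 778 and 650 were among those called without it. Of 570 genes followed under the alternatives, none reversed its direction as a call, and some of them were absent where the 25% lowest genes were left out. Only cyclic loess, array weights and amiNaa10 or control arrays left out alter the estimated change, so under the rest a reversal was impossible. Leaving out 1 array cannot reverse a gene whose groups do not overlap, which held for 92.5% of all called genes. The lack of reversals thus says little about stability. The self-test above shows what the fit detects with 4 arrays a group under independent noise only, and not under deviations that genes share on an array. Genes with signals near the lower end of the scale are hard to measure.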
